A study of Rattus norvegicus with 6 samples.

Results

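The genes described here are 34 genes of DNA replication and cell division, fixed by name, in kidney tissue of 6 male Sprague Dawley rats. A gene was counted as measured where its symbol was listed in the tables of estimated read counts, which held for 33 of the 34 genes among 17051 genes in all, and Bub1b was not analysed here. All 33 measured genes reached 30 counts in 1 or more rats and were tested, among 11553 tested genes. The AL group (rats 61, 71 and 88) received standard powdered chow ad libitum, labelled the normal diet. The HD group (rats 64, 67 and 69) received, for 7 days, chow mixed with amino acids in the proportions of hemoglobin at a daily dose of 3 g per kg body weight, labelled the hyperammonemic diet. Each rat gave 1 library of poly(A)-selected RNA. The age of the rats and the part of the kidney that was sequenced are not given in the sources used here.

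A cell that divides passes through a first gap phase (G1), a phase of DNA synthesis (S), a second gap phase (G2) and mitosis. Most cells of an adult kidney rest outside this cycle, and tubule cells can enter it again, for example after injury. The genes of S phase are switched on mainly by the E2F transcription factors at the end of G1. The genes of mitosis are held down in resting cells by the DREAM complex and switched on in G2 by B-MYB and FOXM1, through a promoter element named the cell cycle genes homology region (CHR), often beside CCAAT boxes bound by NF-Y. Transcripts of many of these genes in a whole tissue report mainly on the few cells that cycle, though not of all, since Pcna also serves in repair. In bulk RNA a change in the number of cycling cells cannot be told apart from a change in the RNA of each.

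Both classes of promoter can be read in the rat sequences, and the stretches below show examples of these elements in replication genes and mitosis genes. RefSeq promoter windows of assembly GRCr8, 250 bases before to 50 bases after the annotated start, were matched by symbol for 26 of the 34 genes. An E2F match was any of TTTCCCGC, TTTGGCGC, TTTCGCGC and TTTGCCGC, a CHR match TTTGAA or TTCGAA, and a CCAAT match CCAAT, each on both strands. Each line gives the 150 bases before the start, read 5′ to 3′ along the gene, with matches in capitals. In Mcm7 the E2F match overlaps a CCAAT match, and in Mcm6 E2F matches on both strands overlap.
Mcm7 (chr12:22163179-22163328, minus strand): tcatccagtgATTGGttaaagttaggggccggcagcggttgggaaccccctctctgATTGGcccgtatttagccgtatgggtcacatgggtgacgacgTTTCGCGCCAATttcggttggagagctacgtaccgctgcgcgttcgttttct
Mcm6 (chr13:42404353-42404502, minus strand): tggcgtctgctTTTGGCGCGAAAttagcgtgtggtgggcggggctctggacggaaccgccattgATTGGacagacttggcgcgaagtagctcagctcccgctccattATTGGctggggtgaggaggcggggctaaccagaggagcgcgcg
Tyms (chr9:120776084-120776233, minus strand): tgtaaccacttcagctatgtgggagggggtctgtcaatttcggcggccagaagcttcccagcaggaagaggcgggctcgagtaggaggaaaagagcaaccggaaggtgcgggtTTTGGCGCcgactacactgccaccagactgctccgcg
Cdk1 (chr20:19265143-19265292, plus strand): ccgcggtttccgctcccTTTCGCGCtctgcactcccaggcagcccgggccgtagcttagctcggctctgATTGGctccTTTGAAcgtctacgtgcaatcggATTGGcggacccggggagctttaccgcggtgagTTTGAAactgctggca
Cdc20 (chr5:137255800-137255949, minus strand): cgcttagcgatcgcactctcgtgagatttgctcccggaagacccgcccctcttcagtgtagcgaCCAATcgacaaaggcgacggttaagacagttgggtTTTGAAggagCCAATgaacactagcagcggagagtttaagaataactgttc
Ccnb1 (chr2:33655226-33655375, minus strand): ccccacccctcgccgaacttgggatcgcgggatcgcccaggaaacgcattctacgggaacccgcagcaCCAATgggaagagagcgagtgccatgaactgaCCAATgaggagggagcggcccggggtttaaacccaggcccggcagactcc
Kif11 (chr1:244536717-244536866, plus strand): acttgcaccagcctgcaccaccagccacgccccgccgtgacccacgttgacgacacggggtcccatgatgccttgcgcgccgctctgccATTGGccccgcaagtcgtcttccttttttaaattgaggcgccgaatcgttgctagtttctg

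E2F matches were present in 6 of 9 replication promoters (Mcm2, Mcm3, Mcm5, Mcm6, Mcm7 and Tyms) and in 1 of 16 mitosis promoters, that of Cdk1. The 16 include the promoter of Bub1b. Over all 33469 promoter windows the share was 2.14%, and over the 8951 windows of tested genes it was 3.89%. CHR matches were present in 11 of the 16 mitosis promoters (68.8%) and in 3 of the 9 replication promoters (33.3%), against 19.7% of all windows. CCAAT matches were present in 13 of the 16 and in 6 of the 9, against 37.5% of all windows. A window with both CHR and CCAAT was found in 10 of the 16 and in 2 of the 9, against 7.95%. Over the windows of tested genes the shares were 13% for CHR, 37.5% for CCAAT and 5.43% for both. In the Cdc20 stretch a CHR match begins 51 bases before the start, between CCAAT matches that begin 86 and 41 bases before it. Cdk1 carries all 3 kinds of match. The windows of Ccnb1 and Kif11, which have the highest fold changes of the mitosis genes below, held CCAAT matches and no CHR match of these letters. A match is a description of letters and says nothing of binding.

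Library totals ranged from 12499945 to 30466461 estimated counts, with the deepest library in the HD group (rat 69), and the 33 genes together had between 8449 and 27217 counts in a rat. The kidney label was matched by high summed levels of proximal tubule markers (8810 to 13500 CPM, the counts scaled to a common library total, over the 6 rats) and of thick ascending limb and distal markers (5760 to 7920). The groups also differed in markers of cell types. Of 15 tested leukocyte markers, 15 were lower in the HD group, with a median log2FC (log2 fold change, HD over AL) of -1.46 and summed levels of 199 to 406 CPM in the HD group and 362 to 833 in the AL group. The pan-leukocyte marker Ptprc and the T cell marker Cd8a were above 0 in every rat. Podocyte markers had a median of 2.35 over 7 genes (summed level 56.6 to 132 CPM in AL rats and 197 to 422 in HD rats), proximal tubule markers 0.57 over 9, thick ascending limb and distal markers -0.09 over 8, endothelial markers -0.42 over 8, fibroblast and pericyte markers -1.0 over 7 and tubular injury markers -0.26 over 9. The slit diaphragm gene Nphs1 of podocytes was at 9.77 to 13.9 CPM in AL rats and 42 to 74.8 CPM in HD rats. In the thick ascending limb and distal list 3 of 8 markers were higher and 5 lower. The cotransporter Slc12a3 of the distal convoluted tubule was at 18.1 to 27.6 CPM in AL rats and 51.5 to 287 CPM in HD rats, and the anion exchanger Slc4a1 at 586 to 730 CPM and 375 to 527 CPM. The transporter Slc22a8 of the proximal tubule was at 14.7 to 17.2 CPM and 77.6 to 247 CPM, in the same order. It had the largest log2FC (3.20) of its list, in which 7 of 9 markers were higher and 2 lower. No listed marker was at 0 in all 6 rats. The part of these differences in the values below was not tested.

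Levels of different genes were compared in the authors' TPM, transcript abundances scaled for transcript length. Ccnd1, the cyclin D1 that starts the passage through G1, was the most abundant of the 33 genes with a mean of 134 TPM over the 6 rats. The sliding clamp Pcna (83.6 TPM) and the large ribonucleotide reductase subunit Rrm1 (27.2 TPM) followed, and each of these 3 genes was above the next in every rat. Tk1, Kif11 and Mcm7 came next with 20.7, 18.8 and 18.4 TPM, and their order changed from rat to rat. Mcm7 exceeded the next gene, Aurka (12.2 TPM), in every rat, and from Aurka downwards no gene exceeded its next neighbour in all 6 rats, down to the G1/S cyclin Ccne1 (1.07 TPM) and the spindle checkpoint kinase Ttk (0.81 TPM). The median of the mean levels was 7.95 TPM for 11 replication genes and 4.23 TPM for 20 mitosis genes, against 16.6 TPM for all tested genes. Mki67, the marker by which dividing cells are usually counted, had 2.05 TPM. Counts at the lower end were small. Ttk had 9 counts in rat 88 (95% exact Poisson interval 4.12 to 17.1, counting error only), Ccne1 had 12 (6.20 to 21.0) and Aurkb had 17 (9.90 to 27.2).

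**Figure D1:**
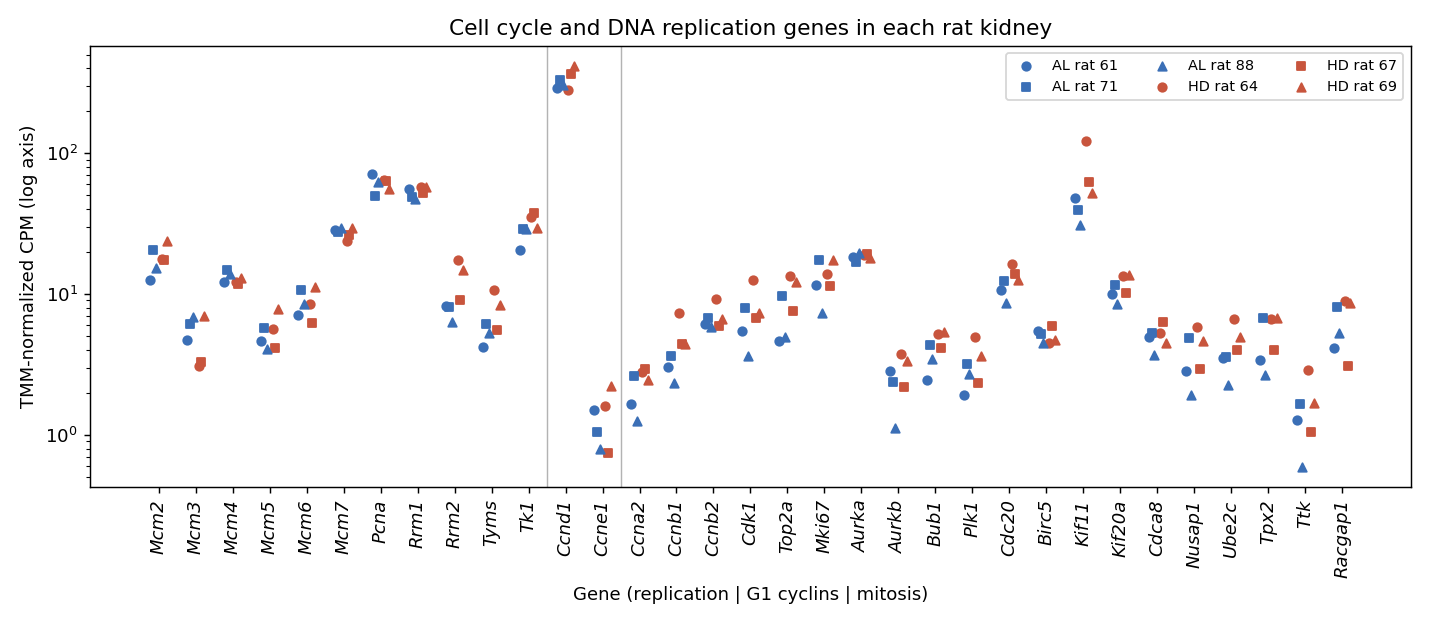
Level of each of the 33 measured genes in each rat, in TMM-normalized CPM on a log axis (AL rats in blue, HD rats in red, 1 point per rat). Ccnd1 lies highest, between 279 and 415 CPM, and in Kif11 all 3 HD rats (52.1 to 121) lie above the 3 AL rats (30.7 to 47.7).

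The comparison of the diets asked whether genes of DNA synthesis and of mitosis differed between HD and AL kidneys. Of the 33 genes, 28 (84.8%) had a higher fitted level in the HD group, against 51.3% of all tested genes, but none passed an adjusted *P* value of 0.05. The mitosis genes lay further from 0 than the replication genes, with a median log2FC of 0.46 over 20 genes (19 higher, 1 lower) against 0.15 over 11 genes (7 higher, 4 lower) and 0.0067 over all tested genes. The difference of 0.31 between these medians is a description and was not tested. The replication genes were not uniform. Their median was -0.02 over the 7 genes Mcm2 to Mcm7 and Pcna, and 0.51 over the 4 genes of nucleotide supply. In edgeR's quasi-likelihood test 0 of the 11553 genes (0%) reached an adjusted *P* value of 0.05, and the smallest among the 33 was 0.406. DESeq2 gave 182 genes (1.58%) past the adjusted threshold and again none of the 33, with 0.0921 for Kif11 as the smallest.

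At an unadjusted *P* value below 0.05, edgeR gave 4 of the 33 genes (12.1%), near the 10.6% of all tested genes. All 4, namely Rrm2, Kif11, Ccnb1 and Ube2c, were higher in the HD group, a direction that held at this threshold for 4.66% of all tested genes. Every HD rat lay above every AL rat in 6 of the 33 genes (18.2%), against 7.25% of all tested genes. These were the 4 above with Tk1 and Cdc20. Every HD rat lay below every AL rat in 0 of the 33, against 7.01%.

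**Figure D2:**
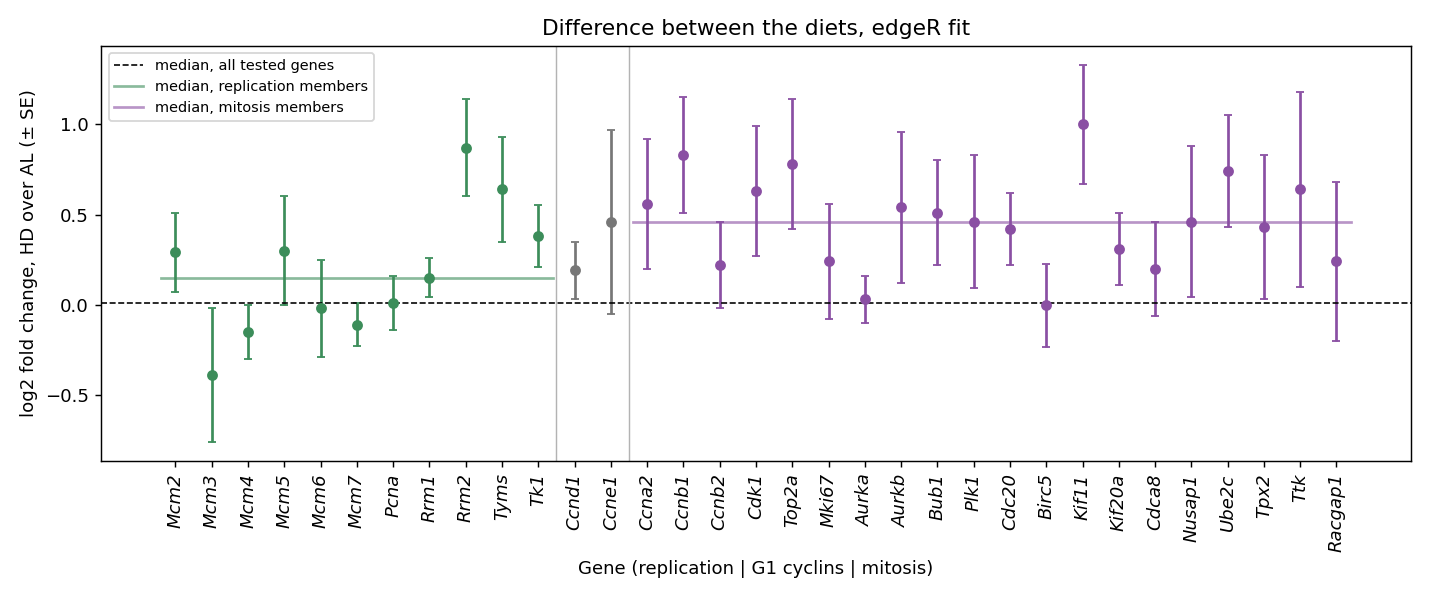
Log2FC of each gene, HD over AL, from the edgeR fit with its SE (standard error), grouped into replication, G1 and mitosis genes. The dashed line is the median of all tested genes (0.0067), and the solid lines are the medians of the replication genes (0.15) and the mitosis genes (0.46).

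The replicative helicase is a ring of the 6 proteins Mcm2 to Mcm7, which is loaded on DNA in G1 and unwinds it in S phase. Its genes had log2FC values from -0.39 to 0.30, 2 of them above 0 and 4 below. Mcm2 was at 12.6, 20.5 and 15.3 CPM in AL rats 61, 71 and 88 and at 17.7, 17.4 and 23.9 CPM in HD rats 64, 67 and 69. Mcm3 was at 4.69, 6.15 and 6.82 CPM in the AL rats and at 3.06, 3.30 and 7.0 in the HD rats, in the same order, with a log2FC of -0.39 (standard error, SE, 0.37) that was -0.88 without HD rat 69. For both genes the groups overlapped, and rat 69 was the highest of the 6. Mcm7, the most abundant subunit per length in all 6 rats, stayed between 23.9 and 29.4 CPM, with a log2FC of -0.11 (SE 0.12). Mcm4 (-0.15, SE 0.15), Mcm5 (0.30, SE 0.30) and Mcm6 (-0.02, SE 0.27) likewise overlapped between the groups. The TPM of the most abundant subunit was 5.28 to 9.95 times that of the least abundant within a rat, and the least abundant was Mcm3 in 5 rats and Mcm5 in rat 88. Pcna, which holds the polymerases on DNA and serves in repair as well, was at 71.3, 49.3 and 61.9 CPM in the AL rats and at 64.6, 63.7 and 55.9 in the HD rats. Its group means of 60.9 ± 11 and 61.4 ± 4.76 CPM (SD, *n* = 3 each) differed by less than the spread between rats.

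The enzymes that supply deoxynucleotides were all 4 higher in HD rats, and their median log2FC was 0.51. Ribonucleotide reductase makes deoxynucleotides with the stable large subunit Rrm1 and the small subunit Rrm2, whose amount follows S phase. Rrm2 was at 8.18, 8.04 and 6.35 CPM in AL rats 61, 71 and 88 and at 17.4, 9.09 and 14.9 CPM in HD rats 64, 67 and 69. The groups did not overlap, with rat 67 only just above the AL rats. Its log2FC was 0.87 (SE 0.27, edgeR adjusted *P* = 0.406), or 1.83-fold, and its DESeq2 adjusted *P* value was 0.139. Rrm1 was at 50.3 ± 4.62 CPM in AL rats and 55.9 ± 3.11 in HD rats (SD, *n* = 3 each), with a log2FC of 0.15 (SE 0.11). The ratio of Rrm2 to Rrm1 in TPM was 0.176, 0.198 and 0.162 in the AL rats and 0.361, 0.208 and 0.309 in the HD rats. The groups did not overlap in this ratio, with rat 67 only just above AL rat 71. It rests on the same Rrm2 reads and is no separate evidence.

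Thymidylate synthase (Tyms) makes thymidylate from deoxyuridylate, and thymidine kinase 1 (Tk1) salvages thymidine in cycling cells. Tyms was at 4.21, 6.15 and 5.29 CPM in the AL rats and at 10.6, 5.55 and 8.34 CPM in the HD rats. HD rat 67 lay below AL rat 71, and the log2FC was 0.64 (SE 0.29, edgeR adjusted *P* = 0.501). Tk1 was at 20.6, 28.9 and 28.8 CPM in the AL rats and at 35.1, 37.5 and 29.4 in the HD rats. Its groups did not overlap, but rat 69 exceeded rats 71 and 88 by less than 1 CPM, and the log2FC was 0.38 (SE 0.17, edgeR adjusted *P* = 0.493). Over a list of 5 further genes of deoxynucleotide metabolism (Rrm2b, Tk2, Dck, Dguok and Samhd1), the median log2FC was 0.21. Of these, 0 of 5 had an unadjusted *P* value below 0.05.

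The G1 cyclins showed no difference beyond the spread. Ccnd1 was at 288, 332 and 305 CPM in the AL rats and at 279, 365 and 415 CPM in the HD rats, so that the HD group held both the lowest and the highest rat. Its log2FC was 0.19 (SE 0.16, edgeR adjusted *P* = 0.740). Ccne1, the cyclin E1 that activates Cdk2 at the start of S phase, lay between 0.749 and 2.21 CPM with 12 to 69 counts per rat and had a log2FC of 0.46 (SE 0.51).

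Cyclin B1 (Ccnb1) with Cdk1 drives entry into mitosis. Ccnb1 was at 3.02, 3.66 and 2.32 CPM in AL rats 61, 71 and 88 and at 7.30, 4.4 and 4.41 CPM in HD rats 64, 67 and 69. The groups did not overlap, and the log2FC was 0.83 (SE 0.32, edgeR adjusted *P* = 0.435), or 1.77-fold. Cdk1 was at 5.48, 7.93 and 3.64 CPM in the AL rats and at 12.6, 6.80 and 7.32 in the HD rats. AL rat 71 lay above HD rats 67 and 69, and the log2FC was 0.63 (SE 0.36). Ccna2, the cyclin A2 of S and G2 phase, had 0.56 (SE 0.36). Ccnb2 had 0.22 (SE 0.24). The tables place Ccnb2 on chromosome 1 of rn5, from 22625116 to 22626610, as a single exon, whereas its RefSeq promoter lies on chromosome 8 of GRCr8 and the other 32 measured genes have 4 to 35 exons, so reads of the gene and of an intronless copy could not be told apart. Of 6 ratios between related genes that were computed, only Rrm2 to Rrm1 and Ccnb1 to Ccnb2 stood apart between the groups. The latter was 0.483 ± 0.0754 for AL rats and 0.734 ± 0.0647 for HD rats (SD, *n* = 3 each), and the limit on the Ccnb2 reads applies to it.

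The kinesin-5 motor Kif11, which pushes the spindle poles apart, had the largest fold change of the 33 genes. It was at 47.7, 39.2 and 30.7 CPM in the AL rats and at 121, 62.5 and 52.1 CPM in the HD rats. The groups did not overlap, and rat 64 was well above the others. The log2FC was 1.00 (SE 0.33, edgeR adjusted *P* = 0.406), and it was 0.55 without rat 64. At 18.8 TPM Kif11 was also more abundant per length than the other 19 mitosis genes, although AL rat 88 had more Aurka (13.3 TPM) than Kif11 (10.4 TPM). Kif11 spans 263519576 to 263570293 on chromosome 1 of rn5 in 22 exons, and no other gene of the tables overlapped its exons. The only such overlap among the 33 genes was 15 bases between Kif20a and Cdc23 on opposite strands of chromosome 18.

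Cdc20 activates the anaphase-promoting complex, the ubiquitin ligase that ends mitosis, and Ube2c is its ubiquitin-conjugating enzyme. Cdc20 was at 10.6, 12.4 and 8.60 CPM in the AL rats and at 16.2, 13.8 and 12.5 in the HD rats, with a log2FC of 0.42 (SE 0.20, edgeR adjusted *P* = 0.505). Ube2c was at 3.49, 3.55 and 2.25 CPM in the AL rats and at 6.62, 4.0 and 4.99 in the HD rats, with a log2FC of 0.74 (SE 0.31, edgeR adjusted *P* = 0.466). In both genes every HD rat lay above every AL rat, for Cdc20 by a margin of only 0.05 CPM between rats 71 and 69.

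Topoisomerase II alpha (Top2a) untangles sister chromosomes, and Ki-67 (Mki67) coats them in mitosis. Top2a was at 4.61, 9.70 and 4.96 CPM in the AL rats and at 13.5, 7.54 and 12.2 in the HD rats, with a log2FC of 0.78 (SE 0.36, edgeR adjusted *P* = 0.499). Mki67 was at 11.5, 17.3 and 7.28 CPM in the AL rats and at 13.9, 11.4 and 17.3 in the HD rats, with a log2FC of 0.24 (SE 0.32, edgeR adjusted *P* = 0.857). AL rat 71 was high in both genes, at the level of HD rat 69 in Mki67.

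The mitotic kinases had a median log2FC of 0.51 over 5 genes. Aurka, the spindle pole kinase, was between 17.0 and 19.4 CPM in all 6 rats and had a log2FC of 0.03 (SE 0.13), the narrowest error among the mitosis genes. Its activator Tpx2 varied more, from 2.65 to 6.81 CPM, and had 0.43 (SE 0.40). Aurkb, the kinase of the chromosomal passenger complex, had 0.54 (SE 0.42), and its partners in that complex had 0.20 for Cdca8 (SE 0.26) and -0.0021 for the survivin gene Birc5 (SE 0.23). The checkpoint kinases Bub1 and Ttk had 0.51 (SE 0.29) and 0.64 (SE 0.54), and Plk1 had 0.46 (SE 0.37). Among the genes of spindle assembly and cytokinesis, Nusap1 had 0.46 (SE 0.42), Kif20a 0.31 (SE 0.20) and Racgap1 0.24 (SE 0.44). In each of the genes named in this paragraph the groups overlapped.

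In 16 of the 20 mitosis genes the groups overlapped. In the other 4 (20%) every HD rat lay above every AL rat, against 7.25% of all tested genes. The reverse held for 0 of 20, against 7.01%. AL rat 88 was the lowest rat in 14 of 20 mitosis genes and HD rat 64 the highest in 12. Of the 9 pairs of an HD and an AL rat, only that of rats 67 and 71 had a median log2 difference below 0 over the mitosis genes, with HD rat 67 above AL rat 71 in 8 of 20 and a median of -0.13. Rat 67 was above AL rat 61 in 15 (median 0.19) and above AL rat 88 in 17 (median 0.54), and rat 71 was below HD rat 64 in 16 and below HD rat 69 in 13. The widest pair was HD rat 64 above AL rat 88, in 18 genes with a median of 0.90. After each gene was centred on its mean over the 6 rats, the median log2 level of the mitosis genes was -0.17, 0.09 and -0.64 in AL rats 61, 71 and 88 and 0.48, -0.05 and 0.22 in HD rats 64, 67 and 69. For the replication genes the medians were -0.16, 0.01 and -0.04 in the AL rats and 0.09, -0.13 and 0.36 in the HD rats. The rats took a different order in the lists, with rat 69 highest for replication and rat 64 highest for mitosis. Summed over the 20 mitosis genes, the level was 121 to 173 CPM in the AL rats and 181 to 283 CPM in the HD rats, without overlap. This separation rested on Kif11, since the sum of the other 19 genes was 89.9 to 134 CPM in the AL rats and 118 to 162 CPM in the HD rats, with overlap (a sum chosen after seeing the data). The summed replication genes did not overlap either, at 226 to 230 CPM in the AL rats and 237 to 259 CPM in the HD rats. Among them, nucleotide supply was apart (87.3 to 91.5 and 104 to 121 CPM, in the same order). The sum of Mcm2 to Mcm7 and Pcna overlapped (135 to 141 and 133 to 148 CPM). The summed leukocyte markers were at 362, 833 and 547 CPM in AL rats 61, 71 and 88. In HD rats 64, 67 and 69 they were at 247, 199 and 406 CPM. Their relation to the mitosis genes was not tested.

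**Figure D3:**
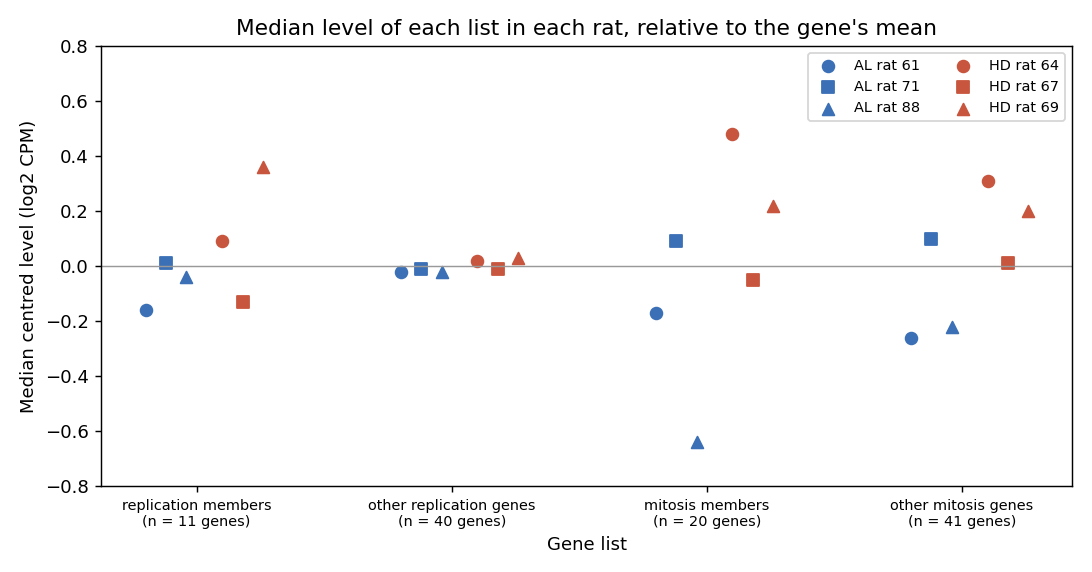
Median centred level of each gene list in each rat, on the log2 CPM scale, where 0 is the gene's mean over the 6 rats (AL in blue, HD in red). The mitosis genes run from -0.64 in AL rat 88 to 0.48 in HD rat 64, and the other replication genes stay between -0.02 and 0.03.

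Single rats moved the mitosis genes more than the replication genes. Without AL rat 71, the median log2FC of the mitosis genes was 0.68 and 6 of 20 had an unadjusted *P* value below 0.05 (Ccnb1, Cdc20, Cdk1, Kif11, Top2a and Tpx2), where 7.67% of all genes did. Without AL rat 88 the median was 0.27 and 0 of 20 passed this value, where 5.26% of all genes did. Without HD rat 64 the median was 0.28 and 1 of 20 passed, namely Kif11, where 5.53% of all genes did. Kif11 was also the one mitosis gene of the 20 that passed without AL rat 61, where 14.9% of all genes did. The median of the replication genes stayed between 0.08 and 0.20. Rrm2 was the one gene of the 33 with an unadjusted *P* value below 0.05 in each of these 6 fits, with log2FC values between 0.68 and 1.1.

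**Figure D4:**
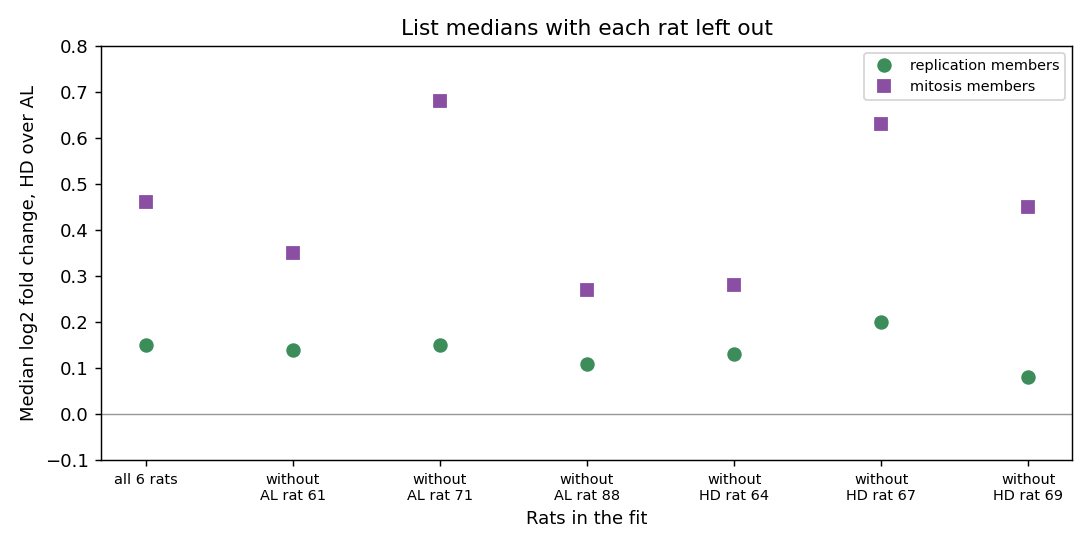
Median log2FC (HD over AL) of the replication genes (green circles) and mitosis genes (purple squares) with all 6 rats and with each rat left out. The mitosis median lies between 0.27 and 0.68 and stays above the replication median, which lies between 0.08 and 0.20.

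Further genes of both processes were taken from lists. Of 41 tested other mitosis genes, 37 were higher and 4 lower in HD rats, with a median log2FC of 0.37. Among all tested genes, 51.3% were higher. Of the 41 genes, 3 had an unadjusted *P* value below 0.05 (Prc1, Hmmr and Cdca2), all higher. At this value the shares of all tested genes were 10.6% in either direction and 4.66% higher. Prc1, which bundles the microtubules of the late spindle, had a log2FC of 0.65 (SE 0.25, edgeR adjusted *P* = 0.426), Hmmr 0.86 (SE 0.35, edgeR adjusted *P* = 0.453) and Cdca2 1.00 (SE 0.41, edgeR adjusted *P* = 0.455). Of 40 tested other replication genes, among them origin recognition, GINS, polymerase and clamp loader subunits, 25 were higher and 15 lower. Their median was 0.06, with 0 at an unadjusted *P* value below 0.05. Every HD rat lay above every AL rat in 8 of the 41 and 2 of the 40 genes, against 7.25% of all tested genes. The reverse held in 0 of the 41 and 4 of the 40, against 7.01%. The median was again higher for mitosis than for replication genes, in the same 6 rats and with no test of the difference.

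The lists of cycle regulators had medians near 0. At an unadjusted *P* value below 0.05, 10.6% of all tested genes passed in either direction and 4.66% were higher in the HD group. The 10 tested E2F, pocket protein and DREAM genes had a median log2FC of 0.03 and the 4 tested CDK inhibitors a median of 0.06, with 0 genes of either list at an unadjusted *P* value below 0.05. Among 8 further G1 cyclins, kinases and their inducers, the median was -0.01. In this list 1 of 8 genes, Myc, had an unadjusted *P* value below 0.05. Myc, the growth-promoting transcription factor, was at 44.2, 18.0 and 23.5 CPM in AL rats 61, 71 and 88 and at 62.0, 62.5 and 51.2 CPM in HD rats 64, 67 and 69, a log2FC of 1.04 (SE 0.31, edgeR adjusted *P* = 0.402, DESeq2 adjusted *P* = 0.0616) with no overlap. The 10 tested p53 target genes had a median of 0.09, and 2 of the 10 had an unadjusted *P* value below 0.05. These were the stress-induced growth inhibitors Sesn2 and Gadd45a. Sesn2 was at 30.7, 30.8 and 30.2 CPM in the AL rats and at 57.9, 46.8 and 45.7 in the HD rats, with a log2FC of 0.71 (SE 0.12, edgeR adjusted *P* = 0.327), and it passed the threshold in DESeq2 (adjusted *P* = 0.00357). Gadd45a had 0.66 (SE 0.24, edgeR adjusted *P* = 0.409) without overlap between the groups.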

How the data were processed

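Kidney poly(A) RNA of 3 AL and 3 HD rats was sequenced by the authors as single-end reads of 100 bases, 1 library per rat, and the groups follow the diet in the labels. Per the labels and the methods of the study, the authors quantified transcripts with RSEM 1.1.15 at default parameters against UCSC gene models of rn5 and deposited estimated counts (expected counts), without normalization, and TPM. Filters on the reads are not given in the sources used here, and the library kit does not mark strand. The estimated counts were summed per gene and rounded, and genes with at least 30 counts in at least 1 rat were kept. TMM normalization and edgeR 4.0.16 (quasi-likelihood test, R 4.3.3) with the diet as the only factor gave log2 fold changes, and *P* values were adjusted over all tested genes (Benjamini-Hochberg). The standard error was the absolute log2 fold change divided by the square root of F. Centred levels used log2 of CPM plus 0.5. DESeq2 1.42.0 was an alternative, as were other normalizations and filters, a robust fit, and fits without each rat. The tests were run on simulated counts first. Replicates are separate rats.

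The genes and lists were chosen with earlier results of these data known. All 34 genes are accounted for, and genes of the further lists are named where their unadjusted *P* value was below 0.05 (at most 4 per list). Marker lists are given by medians and summed levels, and the markers named are among the 3 of their list with the smallest *P* values.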

Additional observations from a re-analysis of the deposited data

How the results depend on the processing

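None of the 33 genes passed an adjusted *P* value of 0.05 under any of the 12 alternatives. Across all genes, 0 passed it in edgeR, 182 in DESeq2, 2 without a filter beyond a count above 0, and 0 to 4 with 1 rat left out. At an unadjusted *P* value below 0.05, library size alone gave 2 of the 33 genes (1 mitosis gene), where 10.1% of all genes passed. With 1 rat left out, all genes at that value ranged from 606 to 1744, the 33 genes from 1 to 7, replication genes from 1 to 3 and mitosis genes from 0 to 6. The extremes for the mitosis genes came without AL rat 88 (0) and without AL rat 71 (6), and 606 of all genes came without AL rat 88. Without AL rat 61 or HD rat 64, 1 mitosis gene remained at that value (Kif11). The replication count of 3 came without HD rat 69, with Mcm3 lower (-0.88, from -0.39 with all rats) and Rrm2 (0.82) and Tk1 (0.48) higher, where 15.6% of all genes passed. Without HD rat 67 it was 2 (Rrm2 and Tyms), where 8.31% passed. The list medians moved by less than the spread between rats under every alternative. Of 394 values of single genes, 378 kept their direction and 16 changed it, in 5 genes, of which Mki67 (0.24 with all rats) had the largest value. Pcna had -0.06 and Aurka -0.05 with library size alone, Pcna -0.003 with at least 10 counts in every rat, and Birc5 0.01 without the filter. With 1 rat left out, the log2 fold change ranged from -0.12 to 0.14 for Pcna, -0.25 to 0.18 for Mcm6, -0.14 to 0.07 for Birc5, -0.02 to 0.09 for Aurka and -0.01 to 0.60 for Mki67. The cause of these changes was not tested. No paired analysis was made, because the study assigned separate rats to the 2 diets at random and no pairing between them is given. Counts per rat were 9 to 53 in Ttk and 12 to 69 in Ccne1, so that counting error was widest in such genes, and genes with high counts such as Kif11 (464 to 1631) did not pass the adjusted threshold either.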
